A study of Arabidopsis thaliana with 12 samples.

Results

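The response of roots to iron deficiency was examined in 6 RNA-seq libraries of Arabidopsis thaliana, 3 from control roots and 3 from Fe-deficient roots, out of 12 libraries in the series. The 19932 genes examined were those of 33607 loci whose mean over the 6 root libraries was at least 1 RPKM, reads per length of transcript and size of library. All plants were wild type of the accession Columbia-0 and were raised on plates of complete medium that held 1.5% sucrose and 25 seedlings each, in continuous light of 50 µmol per square metre and second. After 10 days, control plants were moved to fresh complete medium, and Fe-deficient plants to medium that held no iron and 100 µM ferrozine, which binds ferrous iron. Roots of both groups were collected 72 h later, so both groups share the transfer and the sucrose, and the treatment combines missing iron with the chelator. The other 6 libraries are from rosettes and were used here only to set the level of leaf markers.

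Roots of Arabidopsis take up iron by releasing protons and coumarins into the soil, reducing ferric iron at the cell surface and importing the ferrous ion through IRT1. The bHLH factor FIT, listed as FRU, acts with the bHLH subgroup Ib factors in switching on these steps, while the bHLH factor PYE and the ubiquitin ligase BTS act in a second branch in the stele. Iron within cells is bound by nicotianamine for transport, held in ferritin or the vacuole, and built into haem, iron-sulfur clusters and oxygenases.

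Read depth is unknown, and the spread among 3 libraries is the measure of error. The labels do not say whether the replicates are separate cultures, so p-values measure the spread between these libraries, which may be technical. Across tested genes, Pearson correlations on the log2 scale were 0.9791 to 0.9862 within groups and 0.9618 to 0.969 between them. Markers of root hairs, endodermis, xylem, phloem, root meristem and root cap, 16 in all, were present and none was called. Their summed levels overlapped between groups, but those of phloem only met. Phloem sums were 18.97 to 20.89 RPKM in control and 20.89 to 20.98 RPKM in Fe-deficient libraries. Singly, EXPA7 and SUC2 were higher, and APL and PLT1 lower, in every Fe-deficient library than in any control library. Leaf mesophyll markers were scarce relative to rosettes but not absent. In control roots CAB1, RBCS1A and RCA had means of 70.6, 51.7 and 24.0 RPKM. These are 0.993%, 0.752% and 0.916% of the means in control rosettes. The carbonic anhydrase gene CA1 did not exceed 0.13 RPKM in any control root library. RBCS1A, RCA and GAPA-2 were called lower in Fe-deficient roots, each losing the call in the absence of control replicate 2 or 3. CAB1 and LHCB2.1, with log2 fold changes of -0.15 and -0.46, were not called. The summed mesophyll markers stood at 157 to 170.0 RPKM in control and 109.7 to 139.5 RPKM in Fe-deficient libraries. In whole roots, fewer cells of a type and less RNA per cell cannot be told apart.

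Fold changes are on the scale log2(RPKM + 0.5), and a gene was called changed at an adjusted p under 0.05 in limma's moderated test over all 19932 genes. Of these, 701 were higher in Fe-deficient roots, a share of 3.52%, and 469 were lower, a share of 2.35%. The total of 1170, or 5.87%, dropped to 523 in the absence of control replicate 2, to 708 lacking control replicate 3, to 563, 612 and 724 lacking Fe-deficient replicate 2, 1 or 3, and to 971 lacking control replicate 1. The account below therefore rests on genes called in the fit of 6 libraries and in each of the 6 fits that lack 1 library. Such firm calls numbered 441, with 331 higher genes, 1.66% of those tested, and 110 lower genes, 0.552%. In all 441 no control library reached into the range of the Fe-deficient ones, which also held for 26.1% of all tested genes. The firm rises were larger than the firm falls, with median log2 fold changes of 1.11 and -0.85. Median control levels were 14.5 RPKM for the rises and 41.4 RPKM for the falls, where all tested genes had a median of 13.2 RPKM. Controls are by definition the lower group of a rise and the higher group of a fall. The order of these medians is therefore partly set by the split on direction. With a change of at least 2-fold as well, 222 called genes were higher, 1.11%, and 58 lower, 0.291%. At least 4-fold, 80 firm genes rose and 4 fell.

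**Figure D1:**
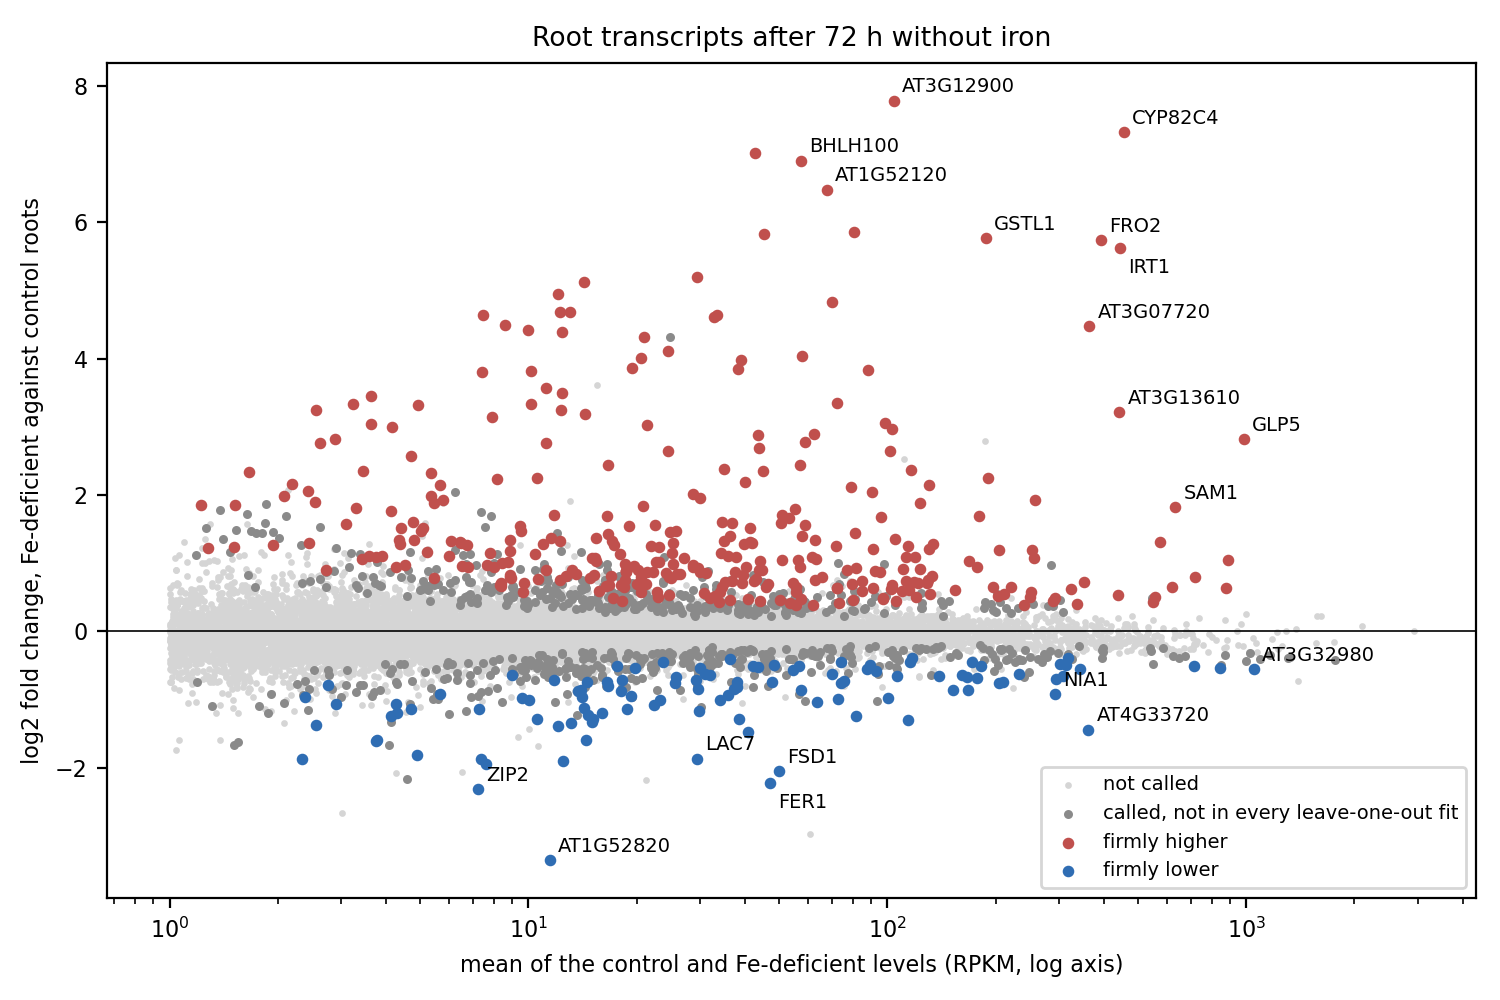
Log2 fold change of each tested root gene (vertical axis) against the mean of its control and Fe-deficient levels in RPKM (horizontal axis, logarithmic), with firm rises in red, firm falls in blue, other called genes in dark grey and the rest in light grey. The 80 firm rises of at least 4-fold reach from low to high levels, whereas 4 firm genes fell by that much.

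The genes of root iron uptake rose almost as a block. Of 13 tested members of the uptake list, 12 rose firmly and 1 fell, with a median log2 fold change of 2.88 against -0.02 over all tested genes. The ferric reductase gene FRO2 (AT1G01580) stood at 12.0, 14.7 and 15.5 RPKM in the control and 760.3, 792 and 760.3 RPKM in the Fe-deficient libraries. FRO2 changed by 5.73 on the log2 scale, with a standard error of 0.0933 and an adjusted p of 3.5e-07 in limma. The iron importer IRT1 (AT4G19690) stood at 15.3, 18.4 and 18.3 RPKM in the control and 836, 890.3 and 890.3 RPKM in the Fe-deficient libraries, a log2 fold change of 5.62. Its neighbour IRT2 (AT4G19680), a relative found inside root cells, stood at 1.56, 3.92 and 1.72 RPKM in the control and 47.5, 51.3 and 41.0 RPKM in the Fe-deficient libraries, a log2 fold change of 4.11. Every Fe-deficient library lay far above every control library for these 3 genes, and IRT1 and FRO2 reached levels among the highest of the genes that rose.

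Regulators and transporters that work beside them rose too. FRU (AT2G28160), the bHLH factor known as FIT, stood at 32.8, 38.0 and 33.9 RPKM in the control and 151, 150.0 and 137 RPKM in the Fe-deficient libraries, a log2 fold change of 2.05. The factors MYB72 (AT1G56160) and MYB10 (AT3G12820), which in roots act on nicotianamine and coumarin genes, rose by 7.01 and 4.64. Control levels of MYB72 were near 0, at 0.2, 0.23 and 0.05 RPKM. The metal efflux genes MTPA2 (AT3G58810), which moves zinc into the vacuole, and IREG2 (AT5G03570), which moves nickel and cobalt there, rose by 4.04 and 2.88. NRAMP1 (AT1G80830), an importer of manganese and iron, stood at 64.6, 69.2 and 68.2 RPKM in the control and 94.1, 92.8 and 91.7 RPKM in the Fe-deficient libraries, a log2 fold change of 0.46, the smallest rise on the list. The 1 member that fell was IRT3 (AT1G60960), a zinc and iron transporter, at 35.7, 40.7 and 38.7 RPKM in the control and 20.6, 22.1 and 20.7 RPKM in the Fe-deficient libraries. IRT3 changed by -0.84 on the log2 scale, with a standard error of 0.0686 and an adjusted p of 0.000765 in limma.

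The signalling list had 17 tested members, of which 11 rose firmly and none fell firmly, with a median of 2.78. The bHLH subgroup Ib gene BHLH100 (AT2G41240) stood at 0.48, 0.42 and 0.48 RPKM in the control and 115, 122 and 106 RPKM in the Fe-deficient libraries, and bHLH38 (AT3G56970) at 2.16, 1.88 and 2.76 RPKM in the control and 159.7, 159 and 158 RPKM in the Fe-deficient libraries. bHLH39 (AT3G56980) and BHLH101 (AT5G04150) rose by 4.83 and 3.86, so that the 4 genes of the subgroup went from at most 6.07 RPKM in any control library to at least 34.2 RPKM in any Fe-deficient library. PYE (AT3G47640) stood at 9.40, 8.57 and 11.2 RPKM in the control and 21.6, 22.9 and 18.3 RPKM in the Fe-deficient libraries, and BTS (AT3G18290) at 23.9, 23.8 and 22.6 RPKM in the control and 59.9, 56.9 and 60.6 RPKM in the Fe-deficient libraries. Their log2 fold changes were 1.07 and 1.32, smaller than those of the subgroup Ib genes, and the libraries again did not overlap. FRO3 (AT1G23020), a mitochondrial ferric reductase, and OPT3 (AT4G16370), a phloem transporter of iron, rose by 2.89 and 2.78. Of the bHLH genes above them in the cascade, ILR3 and bHLH115 were called higher, by 0.42 and 0.34. Both lost the call when control replicate 2 or Fe-deficient replicate 2 was absent. The genes bHLH34, bHLH104 and bHLH121 had log2 fold changes of -0.12, 0.00 and 0.12 and were not called. A larger change was that of bHLH11, called lower at -1.03 in the fit of 6 libraries and in 1 of the 6 that lack a library.

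Members of both lists that the reference does not name rose as well. AT1G74770 and AT1G18910, which it calls zinc ion binding proteins, rose by 2.65 and 1.71. The adjacent AT1G47395 and AT1G47400, both uncharacterised, rose by 3.83 and 3.98, and AT2G30766, uncharacterised too, by 3.33. AT1G47401, AT1G47406 and AT1G47407, which carry neighbouring locus numbers, rose by 2.82, 4.68 and 3.82, and were named after their values were seen. Among the firm genes of the uptake, signalling, nicotianamine and coumarin lists, FRO3, bHLH38, BHLH101, MYB72, MYB10, IREG2, NRAMP1, YSL2, AT1G18910, AT1G28680, AT1G74770, AT2G30766 and AT3G13610 overlap another gene, as did 100 of the 441 firm genes. Whether counting used strand is not stated, so their reads cannot be told apart from those of the overlapping gene.

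**Figure D2:**
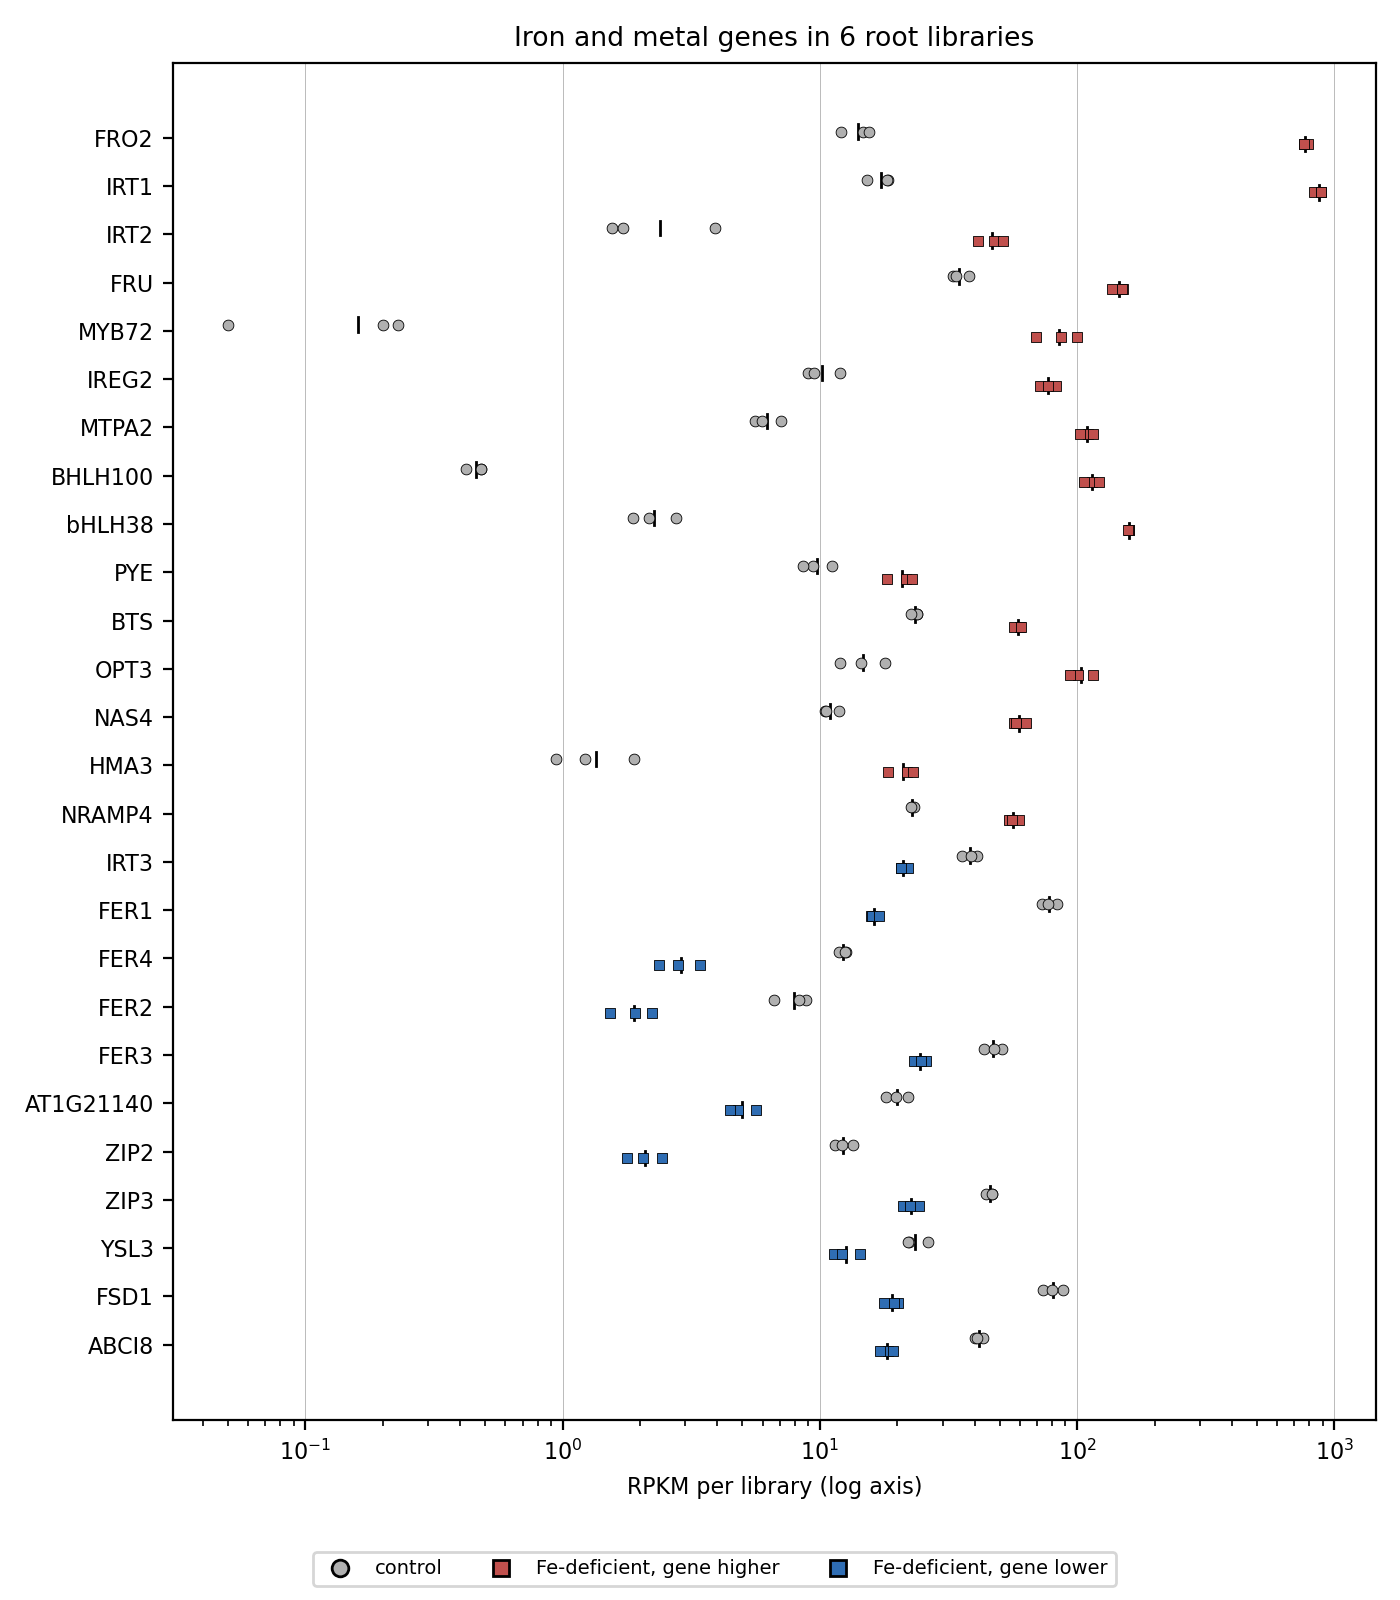
RPKM in each of the 6 root libraries on a logarithmic axis for 26 genes of iron and metal handling, with controls as grey circles, Fe-deficient libraries as red squares (higher) or blue squares (lower), and ticks at the group means. In no gene shown do the groups overlap.

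A G-box, the letters CACGTG, is a sequence that bHLH factors can bind, and the 300 bases before the annotated start were searched for it in each tested gene with a placed start. The motif reads the same on both strands. It occurred before 7.80% of 19767 tested genes, 8.64% of firmly higher genes and 10.0% of firmly lower genes. It occurred before 7.89% of genes that rose firmly at least 4-fold, and before 15.4% of those that fell firmly at least 2-fold, which is 6 of 39 genes. Among the 25 largest firm rises and the 25 largest firm falls, 6 held it. The stretches below are shown because they belong to a pair of bHLH subgroup Ib genes and a metal carrier gene that rose, all holding the same letters. They are written 5′ to 3′ on the strand of the gene, from RefSeq assembly TAIR10.1, with the G-box in capitals. A match describes the letters only.
BHLH100 (chr2:17199455-17199754, minus strand): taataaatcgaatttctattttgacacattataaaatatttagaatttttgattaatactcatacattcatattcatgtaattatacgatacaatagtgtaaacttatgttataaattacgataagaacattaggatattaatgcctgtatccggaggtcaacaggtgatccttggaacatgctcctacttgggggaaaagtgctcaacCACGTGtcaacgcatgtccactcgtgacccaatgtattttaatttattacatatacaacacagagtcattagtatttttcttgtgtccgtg
bHLH38 (chr3:21085246-21085545, minus strand): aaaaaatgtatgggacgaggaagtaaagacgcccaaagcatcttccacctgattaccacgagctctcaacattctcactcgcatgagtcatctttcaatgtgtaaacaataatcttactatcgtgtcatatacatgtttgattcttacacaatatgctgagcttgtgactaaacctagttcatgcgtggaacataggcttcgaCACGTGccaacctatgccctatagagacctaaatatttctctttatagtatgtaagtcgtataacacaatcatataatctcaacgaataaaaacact
AT3G58060 (chr3:21499944-21500243, minus strand): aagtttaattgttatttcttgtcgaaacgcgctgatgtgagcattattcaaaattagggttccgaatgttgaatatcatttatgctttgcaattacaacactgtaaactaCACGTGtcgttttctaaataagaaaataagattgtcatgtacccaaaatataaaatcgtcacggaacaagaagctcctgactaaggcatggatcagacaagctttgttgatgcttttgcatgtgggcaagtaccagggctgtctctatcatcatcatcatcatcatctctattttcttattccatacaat
The G-box starts 91 bases before the start of BHLH100, 97 before bHLH38 and 190 before AT3G58060.

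Transcripts for nicotianamine, the chelator of iron inside the plant, rose from particular family members. Of 11 tested members of this list, 3 rose firmly and 2 fell firmly. The nicotianamine synthase gene NAS4 (AT1G56430) stood at 11.9, 10.5 and 10.6 RPKM in the control and 56.7, 58.1 and 63.1 RPKM in the Fe-deficient libraries, and NAS1 (AT5G04950) rose by 2.14. ZIF1 (AT5G13740), which loads nicotianamine into the vacuole, rose by 1.52. YSL2 (AT5G24380) and YSL3 (AT5G53550), carriers of metal-nicotianamine complexes, went the other way: YSL3 stood at 22.2, 22.0 and 26.3 RPKM in the control and 11.4, 12.2 and 14.3 RPKM in the Fe-deficient libraries, and the log2 fold changes were -1.01 and -0.87. Libraries of the groups did not overlap for any of the 5. FRD3, the citrate exporter that loads iron into xylem, had a log2 fold change of -0.14 and was not called.

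Zinc and manganese carriers split in a similar way, with 3 firm rises and 3 firm falls among 15 tested. HMA3 (AT4G30120), of the heavy metal pump family and known to carry a truncated, inactive allele in Columbia-0, stood at 1.22, 1.89 and 0.94 RPKM in the control and 21.8, 23.0 and 18.4 RPKM in the Fe-deficient libraries. AT3G58060, of the cation efflux family, and ZIP9 (AT4G33020), of the ZIP family, rose by 4.41 and 2.06. ZIP8 (AT5G45105), which was on no list, rose from 0.24, 0.06 and 0.06 RPKM to 16.1, 14.9 and 13.6 RPKM. By contrast ZIP2 (AT5G59520) stood at 11.4, 13.5 and 12.2 RPKM in the control and 2.06, 1.78 and 2.43 RPKM in the Fe-deficient libraries, and ZIP3 (AT2G32270) and ZIP5 (AT1G05300) had log2 fold changes of -1.01 and -0.92. The ZIP family thus held members that rose, IRT1, IRT2, ZIP8 and ZIP9, beside members that fell, IRT3, ZIP2, ZIP3 and ZIP5. Zinc pumps for root-to-shoot transfer, HMA2 and HMA4, had log2 fold changes of -0.29 and -0.13 and were not called.

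In the copper list, 1 of 16 tested members rose firmly and 2 fell firmly. The copper importer COPT2 (AT3G46900) stood at 0.77, 0.3 and 0.33 RPKM in the control and 27.2, 25.5 and 19.1 RPKM in the Fe-deficient libraries. COPT2 changed by 4.68 on the log2 scale, with a standard error of 0.22 and an adjusted p of 4.82e-05 in limma. The iron superoxide dismutase gene FSD1 (AT4G25100) stood at 74.0, 87.8 and 79.9 RPKM in the control and 20.1, 19.4 and 17.8 RPKM in the Fe-deficient libraries, a log2 fold change of -2.05, and the copper chaperone gene CCH (AT3G56240) had one of -0.75. COPT2 was below 1 RPKM in every control library, and no library of the groups overlapped for any of the 3. Among plasma membrane proton pumps, HA7 (AT3G60330) stood at 10.1, 11.7 and 11.5 RPKM in the control and 48.9, 50.4 and 39.9 RPKM in the Fe-deficient libraries, and HA2 (AT4G30190), the main root pump of iron deficiency, at 538, 538 and 505 RPKM in the control and 929.5, 908 and 908 RPKM in the Fe-deficient libraries. HA2 was the more abundant of the pair in both groups, and HA7 the one with the larger change, 2.01 against 0.80. HA11 (AT5G62670) fell, by 0.44 on the log2 scale. HA2 was listed at the same value in 2 libraries of each group.

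The coumarin branch rose from its first committed step to export. Of 10 tested members, 6 rose firmly and none was called lower. AT3G13610, whose synonym in the reference is F6'H1 and which makes the feruloyl-CoA derivative that closes to scopoletin, stood at 83.4, 83.8 and 89.5 RPKM in the control and 802, 783 and 816 RPKM in the Fe-deficient libraries. AT3G13610 changed by 3.22 on the log2 scale, with a standard error of 0.051 and an adjusted p of 3.5e-07 in limma. AT1G28680, an acyltransferase family gene, rose by 0.90. AT3G12900, an oxygenase gene, and CYP82C4 (AT4G31940), a cytochrome P450 that hydroxylates fraxetin to sideretin, rose by 7.78 and 7.31, the pair with the largest rises in the table. CYP82C4 stood at 5.43, 5.64 and 4.60 RPKM in the control and 896, 927 and 896 RPKM in the Fe-deficient libraries. The exporter ABCG37 (AT3G53480) and the beta-glucosidase BGLU42 (AT5G36890), which frees coumarins from their glucosides, rose by 2.25 and 3.34. The other beta-glucosidase genes of the list, BGLU21, BGLU22 and PYK10, and the methyltransferase gene CCoAOMT1 were not called, and PYK10 was listed at the same value in all 6 libraries.

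Transcripts of the precursor route rose by smaller amounts. Of 18 tested genes of the general phenylpropanoid and lignin list, 8 rose firmly and 1 fell firmly. Phenylalanine ammonia-lyase PAL1 (AT2G37040) stood at 319.9, 333 and 337 RPKM in the control and 787, 858 and 805 RPKM in the Fe-deficient libraries, and PAL2 (AT3G53260) at 103, 108 and 110.1 RPKM in the control and 421, 401 and 398 RPKM in the Fe-deficient libraries. PAL2 had the larger change, 1.92 against 1.31, and PAL4, at 0.03, was not called. The 4-coumarate CoA ligases 4CL1 (AT1G51680) and 4CL2 (AT3G21240) rose by 1.69 and 1.89, whereas 4CL3, which serves flavonoids, had a log2 fold change of 0.01 and was not called. C4H (AT2G30490), HCT (AT5G48930), CYP98A3 (AT2G40890) and the caffeoyl shikimate esterase LysoPL2 (AT1G52760), which together lead to caffeoyl and feruloyl units, rose by 0.43, 1.03, 0.74 and 0.65.

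No gene of the list that serves lignin after this fork was called higher. FAH1 (AT4G36220), the ferulate 5-hydroxylase of syringyl lignin, stood at 23.3, 21.6 and 22.1 RPKM in the control and 8.87, 12.4 and 7.66 RPKM in the Fe-deficient libraries. FAH1 changed by -1.20 on the log2 scale, with a standard error of 0.163 and an adjusted p of 0.00813 in limma. CCR1, ATCAD4, CAD5, IRX12, LAC11 and LAC17, which reduce and polymerise lignin units, had log2 fold changes between -0.24 and 0.11 and were not called. None of the 9 tested flavonoid genes was called, with log2 fold changes from -0.47 for UGT78D1 to -0.04 for MYB12, and none of 14 tested suberin genes was called. Upstream, in a list of the shikimate route and aromatic amino acids that was drawn up after values were seen, 7 of 23 tested genes rose firmly and none was called lower. They included AT1G22410 and DHS1 (AT4G39980), which start the route, at 0.63 and 0.44, the 3-dehydroquinate synthase gene AT5G66120 at 0.87, the chorismate synthase gene EMB1144 (AT1G48850) at 0.60 and the arogenate dehydratase gene ADT5 (AT5G22630) at 0.64. AT5G66120 stood at 65.3, 70.5 and 65.4 RPKM in the control and 132, 131 and 109 RPKM in the Fe-deficient libraries, without overlap.

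**Figure D3:**
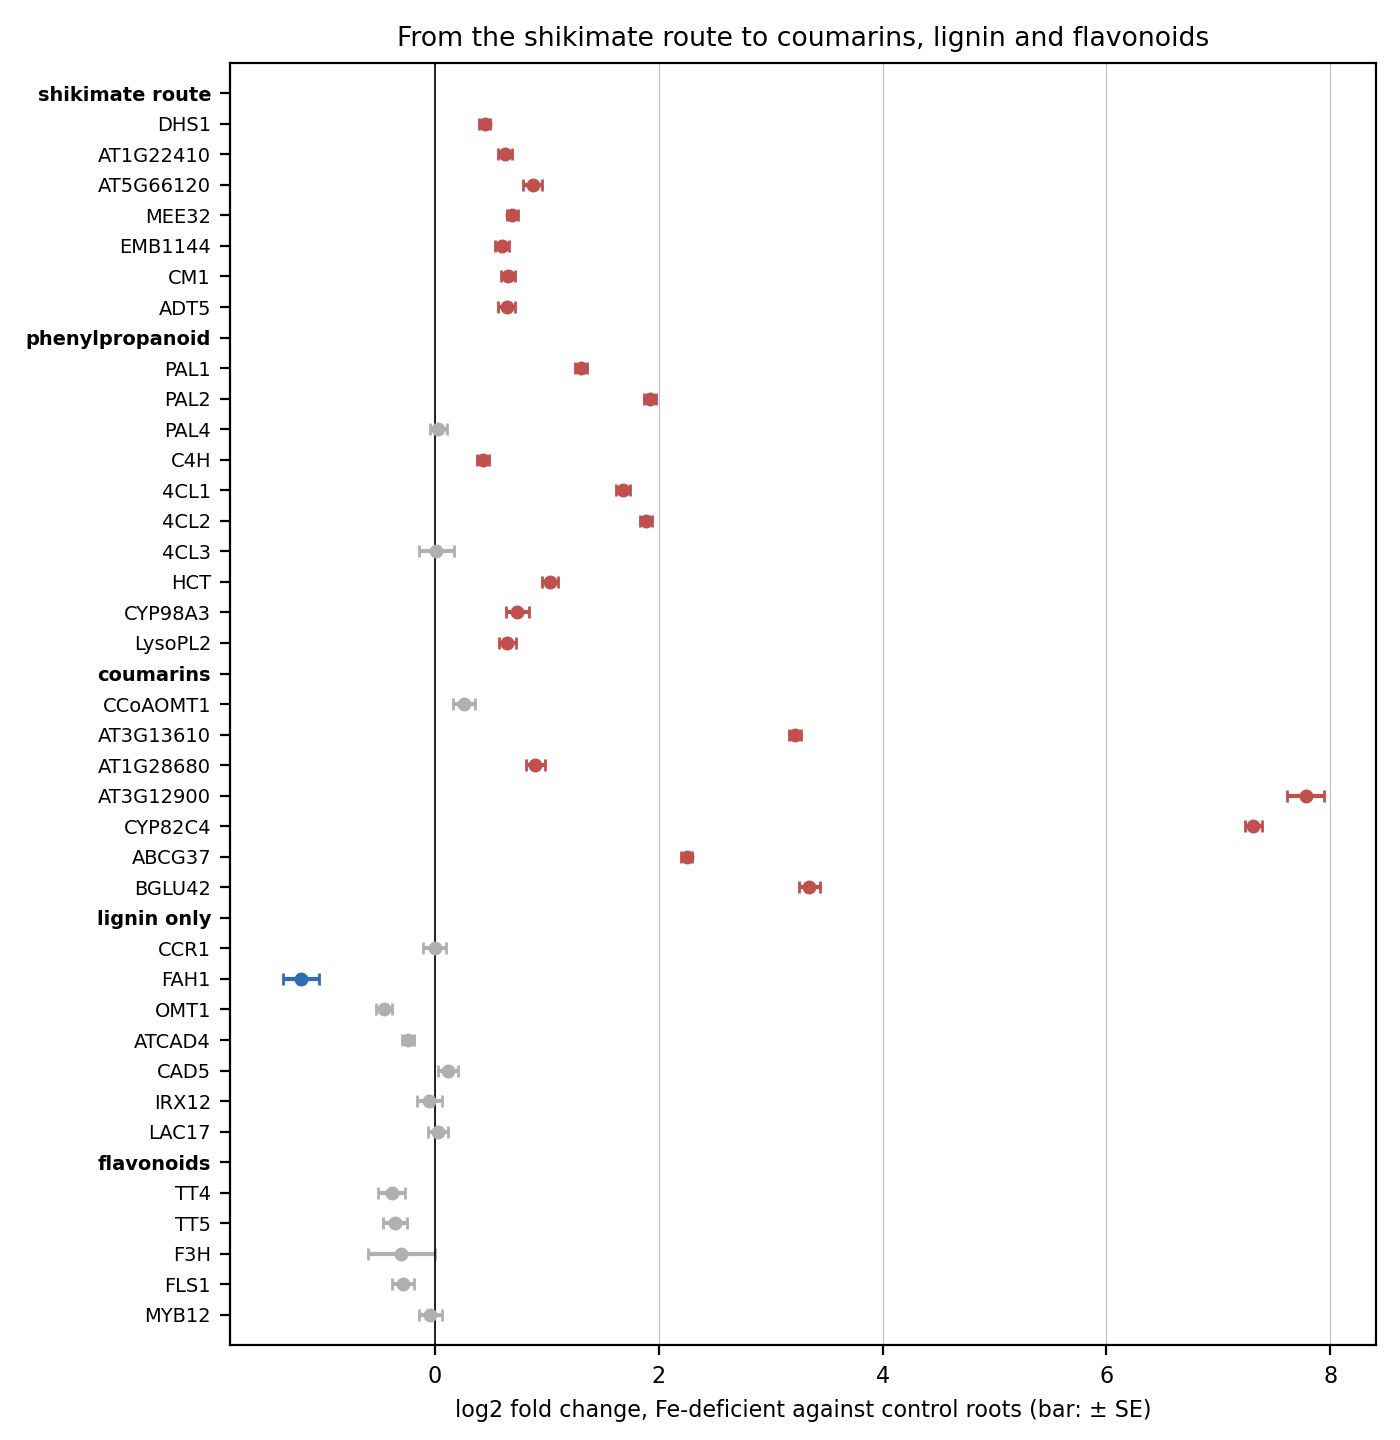
Log2 fold change with its standard error for genes ordered from the shikimate route through phenylpropanoid steps to coumarins, lignin and flavonoids, with firm rises in red, firm falls in blue and other genes in grey. Changes are below 1 in the shikimate route and reach 7.31 and 7.78 for CYP82C4 and AT3G12900 in the coumarin branch. They do not grow evenly along the route, with C4H at 0.43 and AT1G28680 at 0.90. The flavonoid genes shown lie at or below 0 and were not called.

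Part of the methionine cycle rose: 8 of 21 tested genes were firmly higher and none was called lower. S-adenosylmethionine is the methyl donor and the source of nicotianamine and ethylene, and the cycle recovers methionine from the methylthioadenosine these reactions leave. The synthetase gene SAM1 (AT1G02500) stood at 284, 290.4 and 263 RPKM in the control and 1003, 1029 and 933 RPKM in the Fe-deficient libraries. SAM1 changed by 1.82 on the log2 scale, with a standard error of 0.0639 and an adjusted p of 1.24e-05 in limma. The synthetase MAT3 (AT2G36880) rose by 0.65, whereas SAM-2 and MTO3, which encode the same activity, had log2 fold changes of 0.02 and -0.14 and were not called.

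Consecutive steps of the recovery route rose. The kinase gene MTK (AT1G49820) stood at 41.1, 41.2 and 48.0 RPKM in the control and 124, 118 and 115 RPKM in the Fe-deficient libraries. The isomerase gene AT2G05830, the dehydratase-enolase-phosphatase gene AT5G53850 and the dioxygenase family gene ATARD2 (AT4G14710) rose by 1.25, 1.07 and 1.28. MTN1, which makes the substrate of MTK, had a log2 fold change of -0.06 and was not called, nor were ARD1, ARD3 and ARD4. The methionine synthase gene MS2 (AT3G03780) and MTO1 (AT3G01120), the cystathionine synthase gene at the entry to methionine, rose by 0.58 and 0.50. Of 21 tested genes of ethylene synthesis and signalling, none changed firmly: AT1G77330, an ACC oxidase gene, was called lower at -0.41 but not without control replicate 2, and ACS2, ACS5 and ACS7 had values of 0.55, 0.43 and 0.52 and were not called.

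Firm changes in carbon and redox metabolism were in single steps rather than whole pathways. The phosphoenolpyruvate carboxylase genes PPC1 (AT1G53310) and PPC3 (AT3G14940), which feed organic acids, rose by 1.08 and 0.53, with PPC1 at 152, 166 and 174 RPKM in the control and 352, 339.8 and 352 RPKM in the Fe-deficient libraries. The alternative oxidase gene AOX1A (AT3G22370) rose by 0.49. In the oxidative pentose phosphate route, a list drawn up after values were seen, 3 of 23 tested genes rose firmly, 3 were called lower without being firm, and the median was -0.07. The rises were G6PD6 (AT5G40760), the 6-phosphogluconate dehydrogenase gene AT3G02360 and the transketolase gene AT2G45290, by 0.76, 0.55 and 0.63. The NAD kinase gene NADK1 (AT3G21070) stood at 39.4, 47.2 and 50.0 RPKM in the control and 139, 158 and 144 RPKM in the Fe-deficient libraries. Of 13 tested genes of low oxygen and fermentation, 5 were called higher and none lower, with a median log2 fold change of 0.44. That is 38.5% called higher, against 3.52% of all tested genes. Only the alcohol dehydrogenase gene ADH1 (AT1G77120) changed firmly, by 0.50.

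Enzymes that conjugate and detoxify rose by selected members. The lambda-class glutathione transferase gene GSTL1 (AT5G02780) stood at 5.72, 7.53 and 5.80 RPKM in the control and 372, 359 and 377 RPKM in the Fe-deficient libraries. GSTL1 changed by 5.77 on the log2 scale, with a standard error of 0.103 and an adjusted p of 5.94e-07 in limma. Its neighbour GSTL3 (AT5G02790) rose by 0.56, and the tau-class genes GSTU9, GSTU25 and GSTU22 by 0.95, 0.49 and 0.42, while the phi-class gene GSTF2 fell by 0.65 on the log2 scale. The glycosyltransferase gene UGT72E1 (AT3G50740), which attaches glucose to coniferyl and sinapyl aldehydes, stood at 21.1, 20.7 and 20.1 RPKM in the control and 185, 187 and 156 RPKM in the Fe-deficient libraries, and was 1 of 2 firm rises, beside 2 firm falls, among 101 tested genes that the reference describes as UDP-glucosyl or UDP-glycosyl transferases. UGT74E2 (AT1G05680), described in other words and so outside that list, rose by 1.31. CYP71B5 (AT3G53280), next to PAL2 on the chromosome with 1 locus between them, rose from 0.33, 0.11 and 0.45 RPKM to 27.3, 21.2 and 23.1 RPKM. Metallothionein gene MT1C (AT1G07610) stood at 616, 600.2 and 529.5 RPKM in the control and 1143, 1303 and 1150.0 RPKM in the Fe-deficient libraries, the 1 firm change among 5 tested metallothioneins.

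Single members of several families of small or secreted proteins rose, a grouping made after values were seen. Of 26 tested jacalin-type lectin genes, the adjacent AT1G52120 and AT1G52130 rose firmly, by 6.48 and 3.80, and no other member did. Another 4 members were called lower, none of them firmly, which is 15.4% against 2.35% of all tested genes. The median over the tested lectins was -0.11. The germin-like gene GLP5 (AT1G09560) stood at 211, 249.6 and 275 RPKM in the control and 1793, 1733 and 1633 RPKM in the Fe-deficient libraries, and GLP9 (AT4G14630) rose by 1.07, among 8 tested. The defensin-like genes AT1G13609 and AT4G11393 rose by 5.82 and 2.76, and the small cysteine-rich protein gene SCRL28 (AT1G14182) rose by 4.39 beside its neighbour AT1G14185, a GMC oxidoreductase gene, at 4.01. GLP5 was already at 211, 249.6 and 275 RPKM in controls, whereas the lectin and defensin-like genes were at or below 2.37 RPKM in every control library.

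In 2 families listed after values were seen, 3 of 17 tested chitinase genes and 3 of 20 tested phloem protein 2 genes rose firmly. Of the chitinases, 5 were called higher and 2 lower, 29.4% and 11.8%. Of the phloem protein genes, 4 were called higher, 20%, and none lower. Over all tested genes 3.52% were called higher and 2.35% lower. The firm rises include the chitinase AT2G43590 at 1.05 and the adjacent PP2-A8 (AT5G45070) and PP2-A6 (AT5G45080) at 2.97 and 1.83. PP2-A8 stood at 20.3, 22.9 and 25.7 RPKM in the control and 186, 191 and 173 RPKM in the Fe-deficient libraries. Of 266 tested receptor kinase genes, 8 rose firmly and none fell firmly, led by CRK26 (AT4G38830) at 1.60. AT1G51830 and AT1G51860 lie in a run of 5 neighbouring loci, AT1G51830 to AT1G51870, that were all called higher, with firm calls for those 2. AT1G51830 holds a stretch nearly identical to AT5G59630, so its value is uncertain. Of 4 tested pathogenesis-related genes, 3 were called lower and none higher: KTI1, PR4 and HCHIB, at -0.61, -0.67 and -0.92, all of which lost the call without control replicate 2. Of 18 tested jasmonate genes, 2 were called lower and none firmly. None of the 9 tested genes of the indole defence list was called. That list does not hold the indole glucosinolate methyltransferase genes IGMT1, IGMT3 and IGMT2, which were called lower, at -0.80, -1.47 and -1.23, and are taken up below.

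Of 89 tested genes that the reference describes as bHLH proteins, a description it does not use for FRU, 5 rose firmly, the subgroup Ib genes and PYE. Of 46 tested WRKY genes, 6 were called higher and 2 lower, 13% and 4.35%, with 2 firm rises. Of 58 tested NAC genes, 5 were called higher and 2 lower, 8.62% and 3.45%, with 2 firm rises. Over all tested genes 3.52% were called higher and 2.35% lower, and 1.66% rose and 0.552% fell firmly. WRKY62 (AT5G01900) and WRKY65 (AT1G29280) rose by 1.51 and 0.59, and NAC044 (AT3G01600) and NAC053 (AT3G10500) by 1.11 and 0.43. In the auxin list of 71 tested genes, 4 rose firmly and none fell firmly. They are the SAUR-like genes AT3G51200, AT5G50760 and AT5G53590, at 3.46, 1.37 and 0.88, and the response factor MP (AT1G19850) at 0.82. AT3G51200 was listed at 0.18 RPKM in all 3 control libraries and at 6.93, 5.52 and 8.81 RPKM in the Fe-deficient ones. A list drawn up after values were seen held 243 tested genes described as RING/U-box or U-box proteins, mostly ubiquitin ligases. Of these, 18 were called higher and 2 lower, 7.41% and 0.823%, while 7 rose firmly and none fell firmly. The firm rises included AT4G09110, AT3G61410 and AT2G20030 at 3.04, 2.65 and 2.32. SHA1 (AT5G63780), described as a RING/FYVE/PHD protein and so outside that list, fell by 0.66 on the log2 scale.

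Precursors of 3 microRNAs rose firmly, out of 52 precursor loci tested in a list drawn up after values were seen. MIR169c (AT5G39635) stood at 0.45, 0.47 and 0.51 RPKM in the control and 3.32, 4.31 and 4.08 RPKM in the Fe-deficient libraries, MIR396a (AT2G10606) at 0.37, 0.37 and 0.37 RPKM in the control and 2.39, 2.48 and 3.15 RPKM in the Fe-deficient libraries, and MIR171c (AT1G62035) at 3.60, 4.10 and 3.23 RPKM in the control and 7.86, 8.78 and 8.53 RPKM in the Fe-deficient libraries. Their log2 fold changes were 2.17, 1.86 and 1.10. The libraries did not overlap, but MIR396a and MIR169c stayed at or below 4.31 RPKM. MIR396a was listed at 0.37 RPKM in all 3 controls. These are polyadenylated precursors, and mature microRNAs were not measured. The mature forms, read from RefSeq assembly TAIR10.1 in DNA letters with bases 2 to 8 in capitals, are shown since they identify which family each precursor belongs to, and the capitals differ among all 5.
miR171c-3p (chr1:22930095-22930115, minus strand): tTGAGCCGtgccaatatcacg
miR171c-5p (chr1:22930157-22930177, minus strand): aGATATTGgtgcggttcaatc
miR396a-3p (chr2:4142331-4142351, minus strand): gTTCAATAaagctgtgggaag
miR396a-5p (chr2:4142443-4142463, minus strand): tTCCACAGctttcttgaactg
miR169c (chr5:15870868-15870888, minus strand): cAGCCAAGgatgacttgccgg

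Of the 331 firm rises, 51, or 15.4%, are uncharacterised in the reference, against 12.1% of all tested genes, and 32 started from a control mean below 1 RPKM. Of those it describes, the kelch repeat gene AT3G07720 stood at 35.1, 28.5 and 29.5 RPKM in the control and 736, 759 and 604 RPKM in the Fe-deficient libraries. The amino acid transporter family gene AT5G38820 stood at 1.07, 1.15 and 1.05 RPKM in the control and 59.8, 58.7 and 55.5 RPKM in the Fe-deficient libraries. The 14-3-3 gene GRF11 (AT1G34760) and the pectin methylesterase gene ATPMEPCRB (AT4G02330) rose by 3.84 and 2.19. Every Fe-deficient library exceeded every control library for all 4. CGLD27 (AT5G67370), ORG1 (AT5G53450), the folate enzyme gene FOLB1 (AT3G11750) and the COBRA-like gene COBL6 (AT1G09790) rose by 3.18, 2.35, 3.50 and 3.33. Among genes of other nutrients, NRT2.6 (AT3G45060), HAK5 (AT4G13420) and the purple acid phosphatase gene PAP7 (AT2G01880) rose by 2.58, 1.92 and 1.59. The lists of potassium transport and purple acid phosphatases, drawn up after values were seen, each held 2 firm rises and 2 genes called lower, 1 of them firmly in the potassium list. The boundary of firm calls ran through small changes, so that several genes named here as risen changed by less than 1.5-fold.

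**Figure D4:**
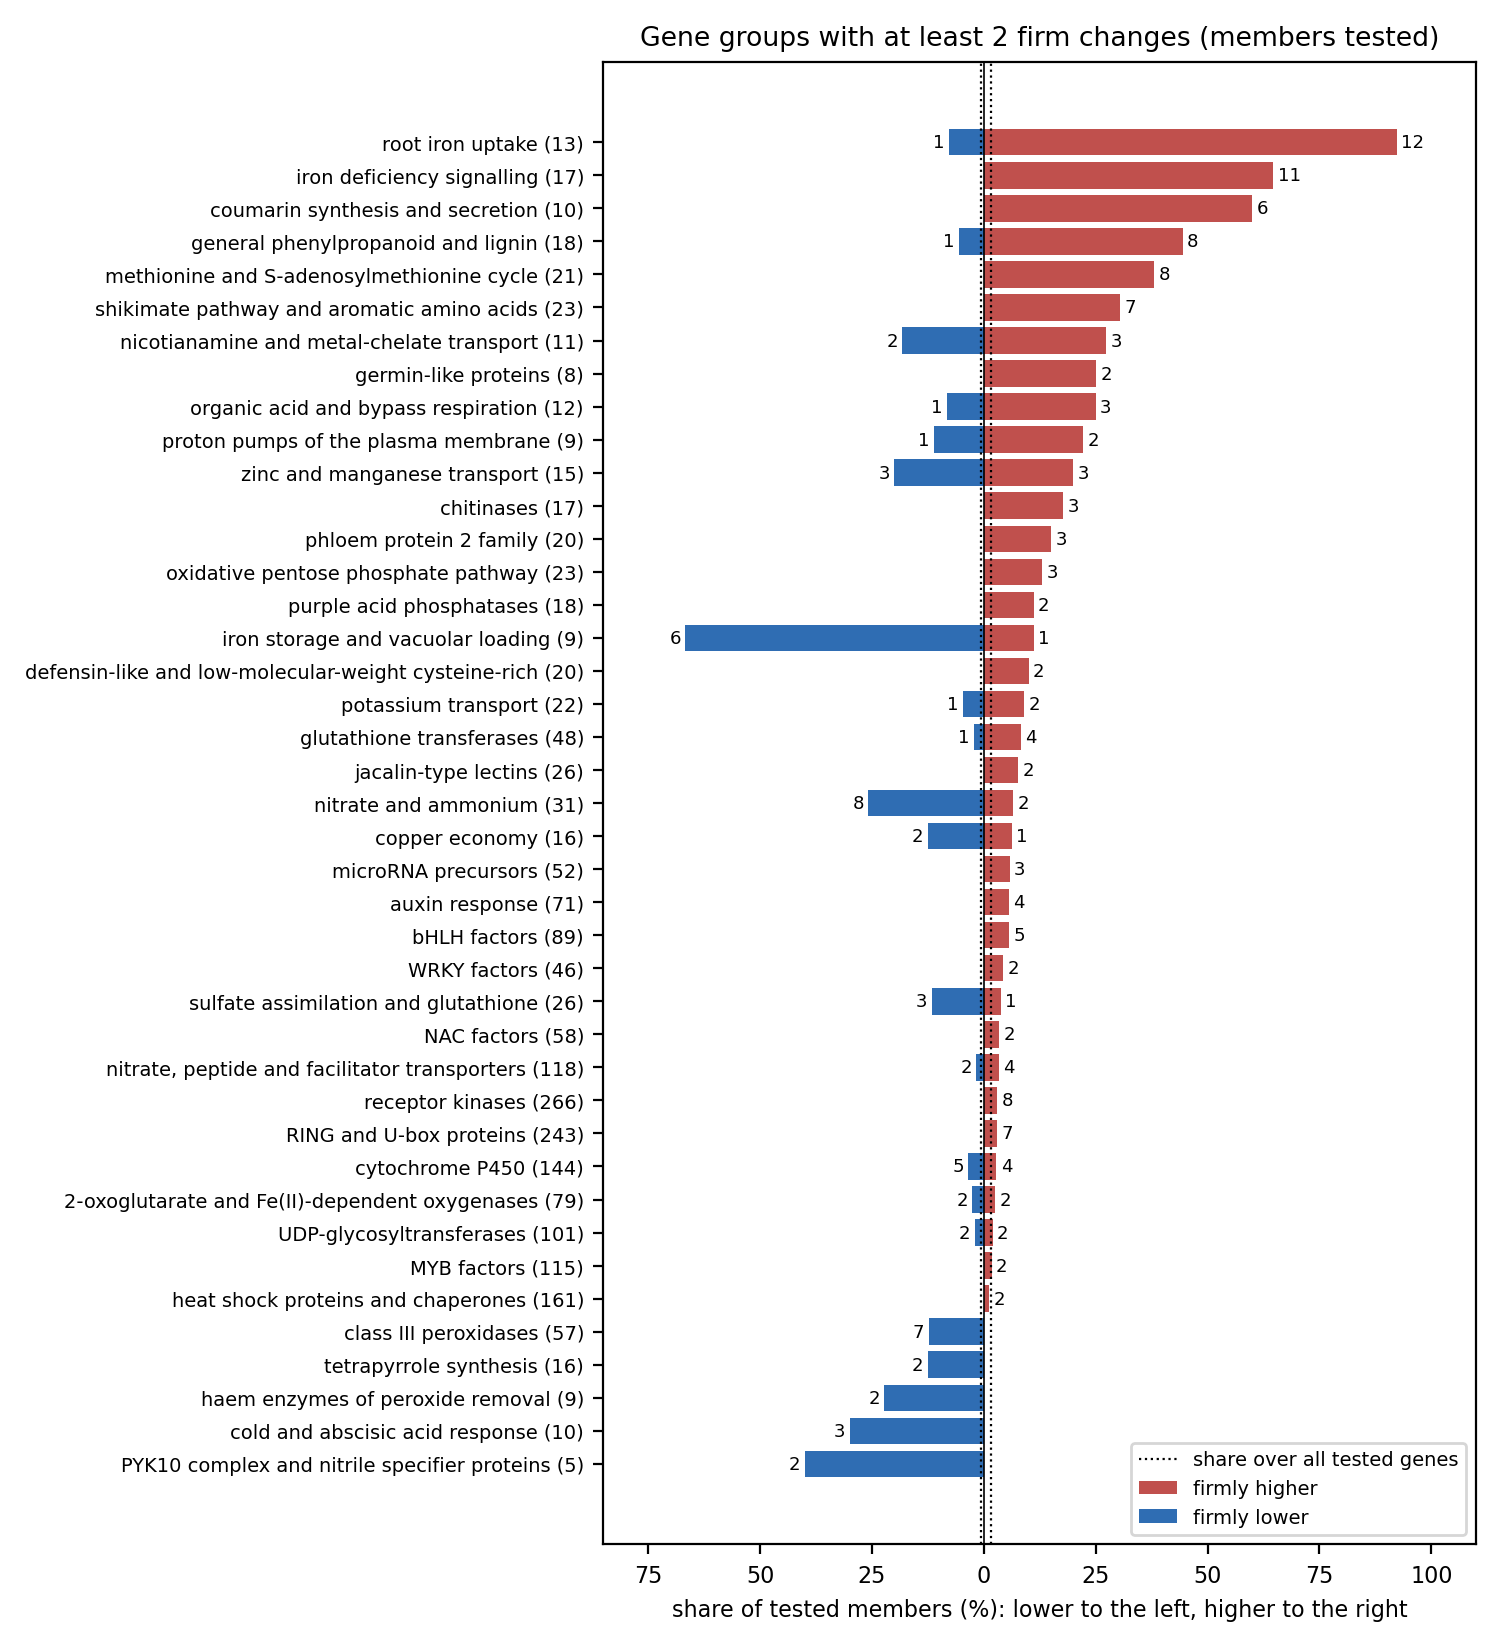
Share of tested members that were firmly higher (red, to the right) or firmly lower (blue, to the left) in each gene list with at least 2 firm changes, with the number of genes at the bar end and the number tested in brackets. Dotted lines mark the shares over all tested genes, 1.66% and 0.552%, and the lists of iron storage, peroxidases, haem enzymes and nitrate stand on the lower side.

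The falls began with iron storage. Of 9 tested genes of storage and vacuolar loading, 6 fell firmly and 1 rose firmly, with a median log2 fold change of -1.82. The ferritin gene FER1 (AT5G01600) stood at 73.0, 83.9 and 77.3 RPKM in the control and 15.8, 16.0 and 17.0 RPKM in the Fe-deficient libraries. FER4 (AT2G40300) stood at 11.9, 12.6 and 12.5 RPKM in the control and 2.82, 2.38 and 3.43 RPKM in the Fe-deficient libraries, and FER2 (AT3G11050) and FER3 (AT3G56090) had log2 fold changes of -1.82 and -0.93. For FER1 and FER4 the log2 fold changes were -2.23 and -1.94, and FER1, FER2 and FER4 overlap another gene. Vacuolar iron transporter-like genes AT1G21140 and AT3G25190, whose synonyms are VTL1 and VTL5, fell as well, with AT1G21140 at 21.9, 18.1 and 19.7 RPKM in the control and 4.80, 5.63 and 4.48 RPKM in the Fe-deficient libraries. The 1 that rose was NRAMP4 (AT5G67330), which exports iron from the vacuole, at 22.8, 23.3 and 22.6 RPKM in the control and 59.5, 54.4 and 55.8 RPKM in the Fe-deficient libraries. Its relative NRAMP3, at -0.16, was not called.

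In tetrapyrrole synthesis 4 of 16 tested genes were called lower, 2 of them firmly, and none higher. The glutamyl-tRNA reductase gene HEMA1 (AT1G58290), the entry to tetrapyrroles, stood at 47.5, 55.1 and 61.9 RPKM in the control and 22.1, 19.9 and 24.9 RPKM in the Fe-deficient libraries, and GUN5 (AT5G13630), a subunit of magnesium chelatase on the chlorophyll branch, had a log2 fold change of -0.95. The summed mesophyll markers given above were lower as well, and their part in this result was not tested. The ferrochelatase genes FC1 and FC2, at -0.16 and -0.40, were not called. Ascorbate peroxidases hold haem, and SAPX (AT4G08390) and APX1 (AT1G07890) fell, with SAPX at 107, 92.5 and 92.5 RPKM in the control and 51.5, 47.8 and 46.1 RPKM in the Fe-deficient libraries. Catalase genes CAT2 and CAT1 were called lower, at -0.63 and -0.89, but both calls were lost without control replicate 2. The aconitase gene ACO3 (AT2G05710) and the succinate dehydrogenase gene SDH2-2 (AT5G40650), both of iron-sulfur proteins, had log2 fold changes of -0.51 and -0.49. SDH2-2 was the 1 gene called among 71 tested genes of the list of mitochondrial electron transport. AOX1A and the NAD(P)H dehydrogenase gene NDB4 (AT2G20800), outside that list, rose firmly, by 0.49 and 1.26. NDB4 was low, with means of 0.94 RPKM in control and 2.94 RPKM in Fe-deficient roots. Of 27 tested genes of cluster assembly, with a median of -0.01, only ABCI8 (AT4G04770), a plastid SUF subunit, changed firmly, at 43.3, 40.3 and 40.8 RPKM in the control and 18.4, 17.1 and 19.2 RPKM in the Fe-deficient libraries.

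Class III peroxidases, secreted haem enzymes that cross-link wall phenolics, changed more often downwards than upwards: of 57 tested, 12 were called lower and 2 higher, and 7 fell firmly and none rose firmly. AT2G37130 stood at 132, 134 and 133 RPKM in the control and 66.8, 69.5 and 67.0 RPKM in the Fe-deficient libraries. AT2G37130 changed by -0.97 on the log2 scale, with a standard error of 0.0449 and an adjusted p of 4.52e-05 in limma. The most abundant of the 7, AT3G32980, stood at 1194, 1242 and 1295 RPKM in the control and 830.3, 830.3 and 891 RPKM in the Fe-deficient libraries, and the others had log2 fold changes from -0.74 for AT4G30170 to -0.62 for AT4G11290, each without overlap. Laccase gene LAC7 (AT3G09220), for a copper enzyme of the wall, stood at 43.6, 50.6 and 45.1 RPKM in the control and 12.8, 12.1 and 12.2 RPKM in the Fe-deficient libraries. The firm P450 falls, 5 of 144 tested, were CYP712A1, CYP710A1, CYP71B2, CYP71B26 and CYP702A5, with log2 fold changes of -1.58, -1.20, -1.13, -0.75 and -0.65. Among oxygenases, AT1G52820 had the largest fall of the table, at -3.35.

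Several steps of nitrate assimilation fell. Of 31 tested genes of nitrate and ammonium, 8 fell firmly and 2 rose firmly. Nitrate reductase, which holds haem and molybdenum, was represented by NIA1 (AT1G77760) at 391, 382 and 372 RPKM in the control and 204, 210.1 and 193 RPKM in the Fe-deficient libraries and NIA2 (AT1G37130) at a log2 fold change of -0.44. Nitrite reductase NIR1 (AT2G15620), with sirohaem and an iron-sulfur cluster, stood at 389.9, 375 and 369.8 RPKM in the control and 245, 235 and 239 RPKM in the Fe-deficient libraries. The sirohaem methyltransferase gene UPM1 (AT5G40850) and the root ferredoxin-NADP reductase genes RFNR1 (AT4G05390) and RFNR2 (AT1G30510), which supply its cofactor and electrons, had log2 fold changes of -0.55, -0.57 and -0.48. Asparagine synthetase gene ASN2 (AT5G65010) and the nitrate-responsive regulator LBD39 (AT4G37540) fell too, at -0.40 and -0.52. The 2 rises were cytosolic glutamine synthetases, GSR 1 (AT5G37600) at 0.73 and GLN1;4 (AT5G16570) at 1.15. Uptake genes NRT1.1 and NRT2:1, at 0.04 and 0.01, and the xylem loader NRT1.5, at 0.20, were not called.

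Sulfate assimilation and glutathione genes moved in both directions, with 3 called higher, 3 called lower and a median log2 fold change of -0.04. Sulfite reductase SIR (AT5G04590), another sirohaem and iron-sulfur enzyme, stood at 199, 198 and 191 RPKM in the control and 126, 129 and 123 RPKM in the Fe-deficient libraries, a log2 fold change of -0.64. The sulfate carrier gene SULTR3;5 (AT5G19600) and the glutathione synthesis gene GSH1 (AT4G23100) had values of -1.07 and -0.38. APR1 (AT4G04610), the reductase that precedes SIR, rose by 0.55, while APR2 and APR3, at -0.07 and -0.03, were not called. The 26 tested members thus held 3 firm falls and 1 firm rise.

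**Figure D5:**
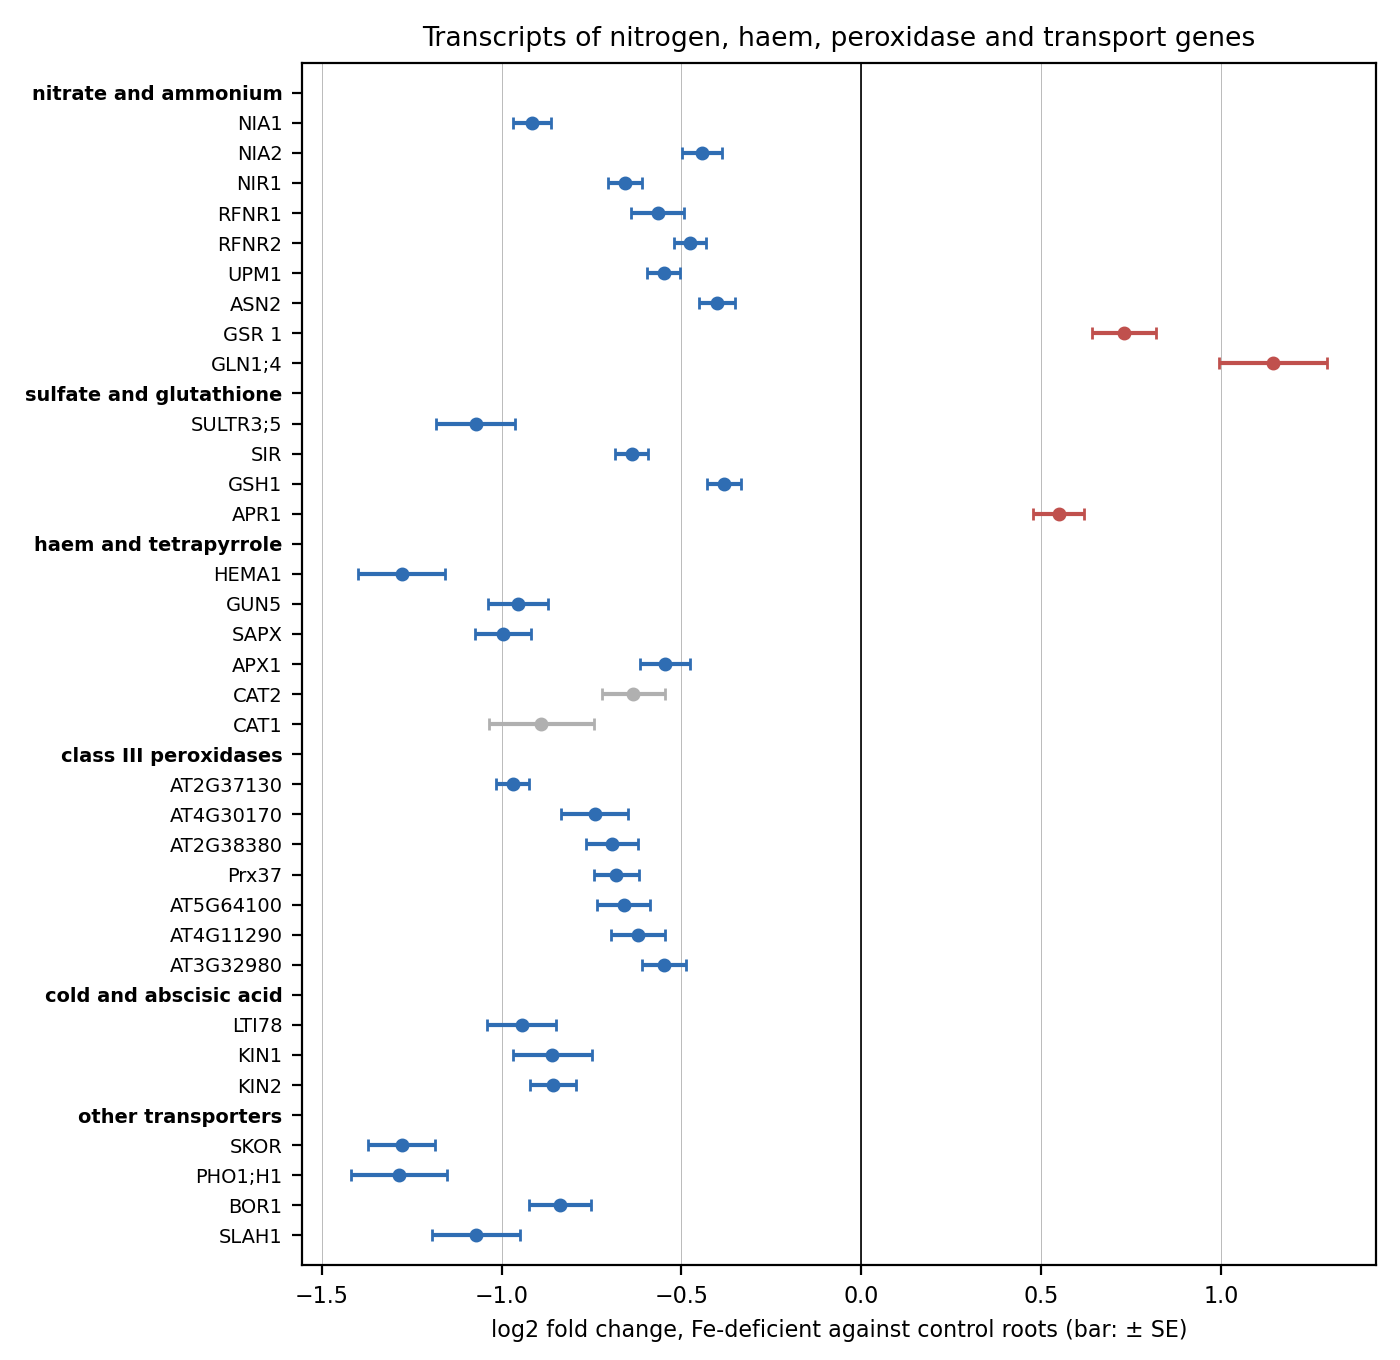
Log2 fold change with its standard error for genes of nitrate, sulfate, haem, class III peroxidase, cold response and transport, with firm falls in blue, firm rises in red and calls that depend on 1 or more libraries in grey. Falls in these groups lie mostly between -0.4 and -1.3, smaller than the coumarin and uptake rises.

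Other falls were spread over smaller groups. Cold and abscisic acid markers KIN1 (AT5G15960), KIN2 (AT5G15970) and LTI78 (AT5G52310) had log2 fold changes of -0.86, -0.86 and -0.94, out of 10 tested. KIN2 stood at 205, 221 and 222 RPKM in the control and 111, 124 and 123 RPKM in the Fe-deficient libraries. The factors CBF1 and CBF2, which act on such genes, were not called. In the PYK10 group of endoplasmic reticulum bodies and nitrile specifiers, listed after values were seen, PBP1 (AT3G16420) and NSP1 (AT3G16400) fell among 5 tested, with NSP1 uncertain for a near-identical copy, AT3G16410. The indole glucosinolate methyltransferase gene IGMT3 (AT1G21110) fell by 1.47 on the log2 scale in a run of 3 called neighbours with IGMT1 and IGMT2, with part of its sequence nearly identical to IGMT2. AT4G33720, for a cysteine-rich secretory protein, stood at 518, 533 and 539.6 RPKM in the control and 173, 191 and 225 RPKM in the Fe-deficient libraries.

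Photosynthesis and ribosome genes had many calls that hung on single libraries. Of 38 tested photosystem, antenna and Rubisco genes, 16 were called lower, but 1 of them, PSBR (AT1G79040), fell firmly. It stood at 54.1, 42.0 and 47.8 RPKM in the control and 29.1, 29.3 and 26.6 RPKM in the Fe-deficient libraries. These levels lie beside leaf markers that also fell, and the part of those markers in this result was not tested. Of 323 tested ribosomal protein genes, cytosolic and organellar, 30 were called lower and 1 higher, and RP1 (AT1G43170) was the 1 firm fall, at -0.51. The phosphate starvation list held 1 firm change among 21 tested, a fall of PHO1;H1, and the root hair list of 20 tested genes held none, nor did the 9 tested genes of triterpene clusters.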

How the data were processed

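Polyadenylated RNA of roots was sequenced in 3 control and 3 Fe-deficient samples, grouped by their titles. The authors deposited values without a unit in the header. They behave as RPKM whose distribution was equalised across the 6 root libraries, which removes any change common to most genes. Per the submitters' processing notes, bcl2fastq 1.8.4, Trimmomatic 0.35, Bowtie2 2.0.6, edgeR 3.12.1, limma 3.26.9 and the build TAIR10 were used. The role of each, the counting and its strand setting are not given in the sources used here, and with depth unknown no counting intervals are given.

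Here the deposited RPKM, after 4 T-DNA rows were left out and a mean of at least 1 was required, were taken as log2(RPKM + 0.5) and compared in limma 3.58.1 (R 4.3.3; lmFit, eBayes with trend). The test was two-sided, and p-values were adjusted after Benjamini and Hochberg across 19932 genes. Exact permutation of 3 against 3 cannot give a p below 0.1. Alternatives were another pseudocount or filter, no trend, array weights, median centring, a replicate block and leaving out each library. The labels do not say that a replicate number marks a shared batch, so no pairing was used.

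The members and the 61 gene lists were chosen with earlier results of these data known, and 10 further lists were drawn up after values were seen. Loci were matched to RefSeq TAIR10.1 (32835 of 33607), names and roles come from it or from textbook knowledge, and near-identical stretches (at least 95% over 100 bases) were found with BLAST+ 2.17.0. The plan was to name, per list, up to 5 firm rises and 5 firm falls with the largest change, and genes a sentence on a list turns on. Some lists name more or fewer. In the shikimate list MEE32 and CM1, which rose firmly by 0.69 and 0.65, were left out although smaller rises are named. Of the 25 largest firm rises and the 25 largest firm falls, not all that the reference describes are named. Those left out include the falls of AT3G49160, AT2G36885, GLIP3 and AT5G01740, at -1.87, -1.39, -1.37 and -1.33. The rise of AT4G17680, at 4.49, was left out too.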

Additional observations from a re-analysis of the deposited data

How the results depend on the processing

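The 441 firm genes kept their direction under every alternative that gave them a value: all stayed called with a pseudocount of 0.1 or 1, without the trend, with array weights and with median centring, 413 without a filter, and 393 of the 393 that reach a mean of 5 RPKM. The counts over all genes moved more. Without a filter, where more genes are tested, 692 genes were called, 452 higher and 240 lower. Leaving out 1 library gave 523 to 971 called genes, 372 to 588 higher and 130 to 383 lower, while those at least 2-fold changed numbered 195 to 226 higher and 44 to 68 lower. Which libraries matter was read from these fits and the cause was not tested. Correlations of same-numbered deviations were -0.00334, 0.00619 and 0.103, and of the other pairs -0.0871 to 0.0842. With 3 libraries in a group, these cannot settle whether the replicate numbers mark a shared batch. With a replicate block the counts were 880 in all, 533 higher, 347 lower, 216 at least 2-fold higher and 59 at least 2-fold lower, and 440 of the 441 firm genes stayed called. Median centring moved the median log2 fold change of all tested genes from -0.018 to -0.02 and the share of higher calls from 59.9% to 59.2%. No result changed sign. Depth is unknown, so genes near 1 RPKM carry an error that only the 3 libraries of a group show.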

Other observations

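Firm changes of further transport genes are given here, chosen after their values were seen and belonging to no common list. SKOR (AT3G02850), the outward potassium channel that loads xylem, stood at 20.6, 21.8 and 22.4 RPKM in the control and 7.60, 8.90 and 9.40 RPKM in the Fe-deficient libraries, and PHO1;H1 (AT1G68740), of the phosphate exporter family, at 15.6, 14.2 and 15.6 RPKM in the control and 5.20, 5.43 and 7.30 RPKM in the Fe-deficient libraries. The boron exporter BOR1 (AT2G47160) and SLAH1 (AT1G62280), of the SLAC1 anion channel family, had log2 fold changes of -0.84 and -1.07. The 4 genes fell in every Fe-deficient library relative to every control library. PHO1 itself, at 0.11, was not called. UMAMIT29 (AT4G01430), of a family of amino acid carriers, and PMT6 (AT4G36670), a sugar alcohol carrier relative, fell too, at -1.58 and -1.12. Among the rises, KAT3 (AT4G32650), a subunit that modifies potassium channels, changed by 0.46, and the aquaporin-like NIP2;1 (AT2G34390) by 1.43. NIP2;1 was the 1 firm change among 27 tested aquaporin genes, of which 2 were called higher and 6 lower, with a median of -0.18, and its value is uncertain for a nearly identical stretch in AT2G29870.

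Other genes with firm changes were likewise chosen after their values were seen. DWF4 (AT3G50660), a hydroxylase of brassinosteroid synthesis, stood at 25.7, 28.5 and 25.8 RPKM in the control and 40.8, 40.3 and 46.0 RPKM in the Fe-deficient libraries. CASP4 (AT5G06200), a membrane scaffold protein of the Casparian strip, stood at 21.0, 19.9 and 19.1 RPKM in the control and 31.2, 27.8 and 28.7 RPKM in the Fe-deficient libraries, the 1 firm call among 8 tested genes of that list. The glyoxalase family gene GLYI4 (AT1G15380) fell, by 0.86 on the log2 scale, and so did NYC1 (AT4G13250), a chlorophyll b reductase, by 1.06. Of the 441 firm genes, 195 belong to a list, 132 of the rises and 63 of the falls.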
